A study of Homo sapiens with 12 samples.

Results

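TP53AIP1 and 8 other target genes of the transcription factor p53 (MDM2, SESN1, BBC3, BAX, FAS, ZMAT3, TP53INP1 and TNFRSF10B) were followed through 12 RNA sequencing libraries of SUM159 breast tumours. The 9 genes were taken by symbol, 9 of the 26475 in the count files, and all 9 passed the filter on low counts that left 15461 genes. TP53AIP1 was chosen by its measured difference between diets in CD24-low cells, which was among the lowest of all genes, so that difference is described here and not tested. Which values were seen when the other 8 were named is not recorded, so their differences in that comparison are described too. The tests below are on the diet difference in CD24-high cells, which shares no library with that comparison. For the other 8 genes they are also on the populations under the control diet, which share the control CD24-low libraries with it. Sharing no library does not make a test independent of the choice. The members were chosen with earlier results known, all 4 groups share an estimate of spread, and both populations may come from the same tumours.

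SUM159 is an established human triple-negative breast cancer line. It was injected into female NOD scid gamma mice at 8 weeks of age, a strain without T, B and NK cells that keeps macrophages, fibroblasts and vessels. Control mice ate a standard diet, and the others were given a fasting-mimicking diet (FMD) in cycles of 4 days a week. Tumour cells were stained for human CD44 and CD24, and CD44-positive cells were sorted by CD24 into a low (LO) and a high (HI) population, used by the study as cancer stem cells and differentiated cells. That gave 4 groups of 3 libraries. CTR_LO and CTR_HI are the CD24-low and CD24-high cells of control mice, and FMD_LO and FMD_HI those of mice on the fasting-mimicking diet. The labels do not say whether replicates came from separate mice, so the p-values measure the spread between these libraries.

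The p53 protein binds DNA as a tetramer at response elements made of a pair of half-sites and switches on genes for cell cycle arrest, repair and apoptosis. MDM2 is both its target and the ubiquitin ligase that marks it for destruction, which closes a feedback loop. Among its targets, TP53AIP1 encodes a mitochondrial protein that promotes apoptosis and is known to be switched on when a particular serine of p53 is phosphorylated. TP53INP1 promotes that phosphorylation, and HIPK2, DYRK2 and PRKCD are kinases for it. BBC3 and BAX act at the mitochondrion, and FAS and TNFRSF10B are receptors that start apoptosis from the cell surface.

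The sequences that follow are the closest match to the 20-base p53 response element in the RefSeq promoter windows of the members (GRCh38.p14, 250 bases before to 50 after each start), shown because p53 acts on its targets through such elements. Capitals mark the 20 bases of the match, and 5 bases of context flank them on each side. The element equals its own reverse complement, so both strands are covered.
TP53AIP1, chr11:128942895-128942924, minus strand: tgagaGGCCGTGCTCGGGCTCGCCTgctca
MDM2, chr12:68808918-68808947, plus strand: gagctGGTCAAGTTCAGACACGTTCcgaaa
SESN1, chr6:109009013-109009042, minus strand: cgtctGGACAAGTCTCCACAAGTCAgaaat
BBC3, chr19:47232816-47232845, minus strand: gaggcAGTCAAGTTTGAGAAGTCTGacatc
BAX, chr19:48954702-48954731, plus strand: tgctgGCACTTATCGGGAGATGCTCattgg
FAS, chr10:88991304-88991333, plus strand: ctcctGGACAAGCCCTGACAAGCCAagcca
ZMAT3, chr3:179071868-179071897, minus strand: ctgccGGGCCTGCTCCGCCAAGCACatgcg

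Each match is the closest over all windows of its gene, 4 for MDM2, 3 for FAS and SESN1, 2 for TP53AIP1 and ZMAT3 and 1 for BBC3 and BAX. The shares below are of single windows, so they make a match picked from several windows look rarer than it is. MDM2 and FAS came closest, with 2 bases of 20 off the element, and 0.649% of the 35116 windows of this length had a match as close. TP53AIP1 and SESN1 had 3 bases off, as close as 5.2% of windows. BAX and ZMAT3 had 4 off (26% of windows as close) and BBC3 had 5 (70.5%). An exact half-site lay in 1 of 3 windows of SESN1 and in 1 of 3 of FAS, against 6.63% of all windows. TP53INP1 and TNFRSF10B are named only. Only these windows were searched, so an element elsewhere in or near a gene would not be seen. The closest match need not be the element that p53 uses. These matches describe letters only, and say nothing of what bound there in these cells.

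The libraries held 17736610 to 47587142 counted reads. FMD_LO was shallowest, with at most 18579816, and every other library had at least 29049144. The labelled line's VIM (4347 to 6457 CPM, counts scaled to library size by TMM) and CD44 (667 to 1229) were high in every library, and of the 3 receptors that define a triple-negative tumour ESR1 stayed at or below 0.7495 and PGR at or below 0.228. The third, ERBB2, was at 56.7 to 87.8 CPM, in the range of EGFR (56.5 to 177). CD24 RNA was low in all groups and did not separate the sorted populations under either diet. It was at 1.31 to 2.82 CPM in CTR_LO, 1.41 to 2.85 in CTR_HI, 1.03 to 1.90 in FMD_LO and 1.43 to 3.27 in FMD_HI. The FMD_LO libraries stood apart. Their 12 leukocyte markers summed to 250 to 294 CPM, against 23.5 to 42.4 in CTR_LO, 31.2 to 47.7 in CTR_HI and 40.7 to 63.5 in FMD_HI. TYROBP was at 0 in FMD_LO and CD53 at 0 in CTR_HI. Fibroblast markers, which this mesenchymal line may also express, summed to 47229 to 69882 in FMD_LO, against 20208 to 35773 in CTR_LO, 16449 to 30601 in CTR_HI and 14357 to 18058 in FMD_HI. Endothelial markers summed to 50.03 to 104 in FMD_LO, against 32.6 to 42.5 in CTR_LO, 29.8 to 36.3 in CTR_HI and 32.9 to 37.0 in FMD_HI. How much of any FMD_LO value below came with these markers was not tested. In RNA from sorted pools, fewer cells of a type and less RNA per cell cannot be told apart.

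TP53AIP1 was low under the fasting-mimicking diet in both sorted populations. Its levels were 6.01, 4.97 and 7.43 CPM in CTR_LO and 4.82, 4.45 and 5.12 in CTR_HI. In FMD_LO they were 1.13, 1.83 and 1.68, and in FMD_HI 1.39, 1.92 and 2.18. All 6 libraries of the fasting-mimicking diet (1.13 to 2.18 CPM) lay below all 6 of the control diet (4.45 to 7.43). Of all genes tested, 1.1% (170) did so, and none of the other 8 members. Since the FMD_LO difference chose the gene, this separation is a description.

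Behind these levels were few reads: 290, 148 and 250 in CTR_LO and 19, 31 and 31 in FMD_LO, and 162, 129 and 179 in CTR_HI and 44, 64 and 84 in FMD_HI. The exact 95% Poisson interval of the lowest count, 19, ran from 11.4 to 29.7 counts, or 0.679 to 1.76 CPM. Its upper end lay below the lower end of the interval of every control library, the lowest of which was 3.71 CPM. Such intervals cover counting error only. By group mean the order was CTR_LO at 6.14 ± 1.23 CPM (SD, n = 3), CTR_HI at 4.80 ± 0.339, FMD_HI at 1.83 ± 0.407 and FMD_LO at 1.54 ± 0.368. Libraries overlapped between the first and the second of these, and between the third and the fourth.

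**Figure D1:**
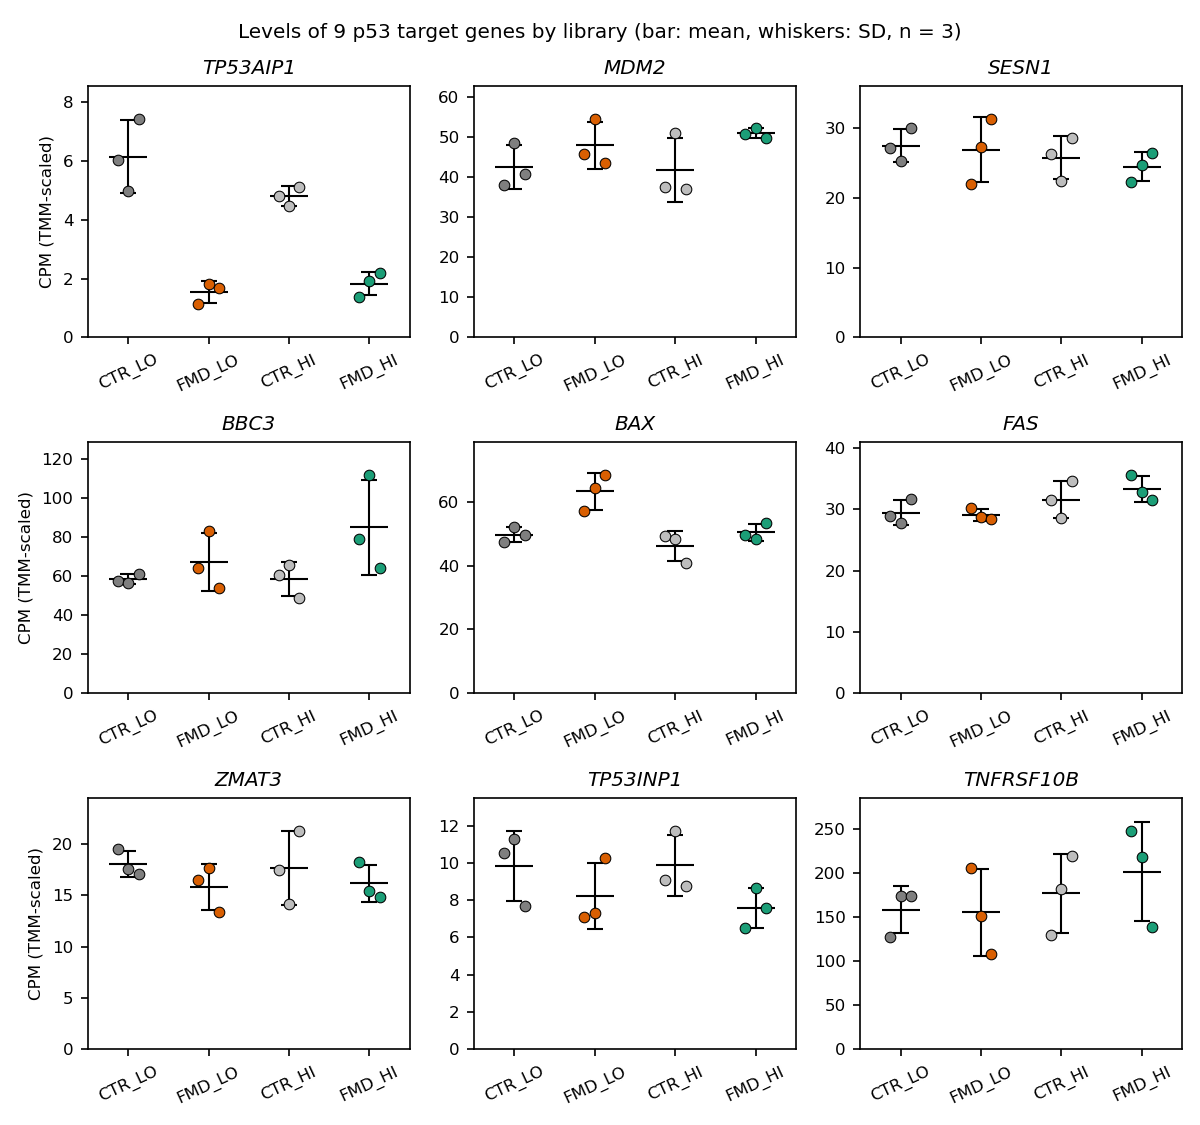
Levels of the 9 genes in CPM (TMM-scaled, each vertical axis from 0) in the 3 libraries of each group; points are libraries, bars are means and whiskers are SDs. TP53AIP1 alone has all 6 fasting-mimicking diet libraries (1.13 to 2.18 CPM) below all 6 control libraries (4.45 to 7.43 CPM), and BAX has its 3 highest values in FMD_LO.

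The CD24-high cells share no library with the comparison that chose TP53AIP1, but are not shown to be independent of that choice. In them TP53AIP1 had a log2 fold change of -1.39 ± 0.24 (SE), with a 95% interval of -1.895 to -0.88. Its level in FMD_HI was thus 0.383 times that in CTR_HI, and the libraries did not overlap. Unadjusted, edgeR's quasi-likelihood p was 4.99e-05, and 2 of the 15461 genes had a smaller one. The Benjamini-Hochberg adjusted p was 0.257, short of the threshold of 0.05. Across 20 alternatives of the processing the log2 fold change stayed between -1.54 and -1.21, and the adjusted p passed the threshold in 1, DESeq2 (4.28e-04), and ran from 0.0802 to 0.891 in the others. The highest came without FMD_HI replicate 1. An exact two-sided permutation test over the 6 libraries gave p = 0.1, the smallest that 3 against 3 allows.

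In that comparison edgeR called 0% of all genes, and 0 of the 9 members. At an unadjusted p under 0.05 stood 1042 genes (6.74%), among the members TP53AIP1 and BBC3, and DESeq2 called 74 genes (0.497% of the 14888 with an adjusted p). By overlap, 2 of the 9 members, TP53AIP1 and TP53INP1, had all FMD_HI libraries below all CTR_HI libraries, against 4.72% of all genes. The median log2 fold change of the members other than TP53AIP1 was 0.10, and that of all genes was 0.00 (-0.0044 before rounding).

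In CD24-low cells, the comparison that chose it, TP53AIP1 had a log2 fold change of -1.99 ± 0.25 and 27 genes had a lower one. It passed the threshold there in all 20 alternatives, between -2.13 and -1.81, which is the rule's own contrast and supports nothing further. The interaction of diet and population was -0.60 ± 0.34 for TP53AIP1, a value that contains the choosing contrast. The interaction called 0 of the 9 members, against 4.13% of all genes. Genes with a log2 fold change at or below -1 in both populations numbered 50, TP53AIP1 among them, and 20 of the 50 had all 6 libraries of the fasting-mimicking diet below all 6 controls. In FMD_HI, where TP53AIP1 was also low, the summed leukocyte and fibroblast markers overlapped those of CTR_HI. Of the leukocyte markers 9 of 10 tested had a positive log2 fold change there (median 0.74), 2 of them at an unadjusted p under 0.05. Of the fibroblast markers 10 of 12 had a negative one (median -0.81), and 5 of the 12 stood at an unadjusted p under 0.05. EdgeR called none of either list, and their part in the TP53AIP1 value was not tested.

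**Figure D2:**
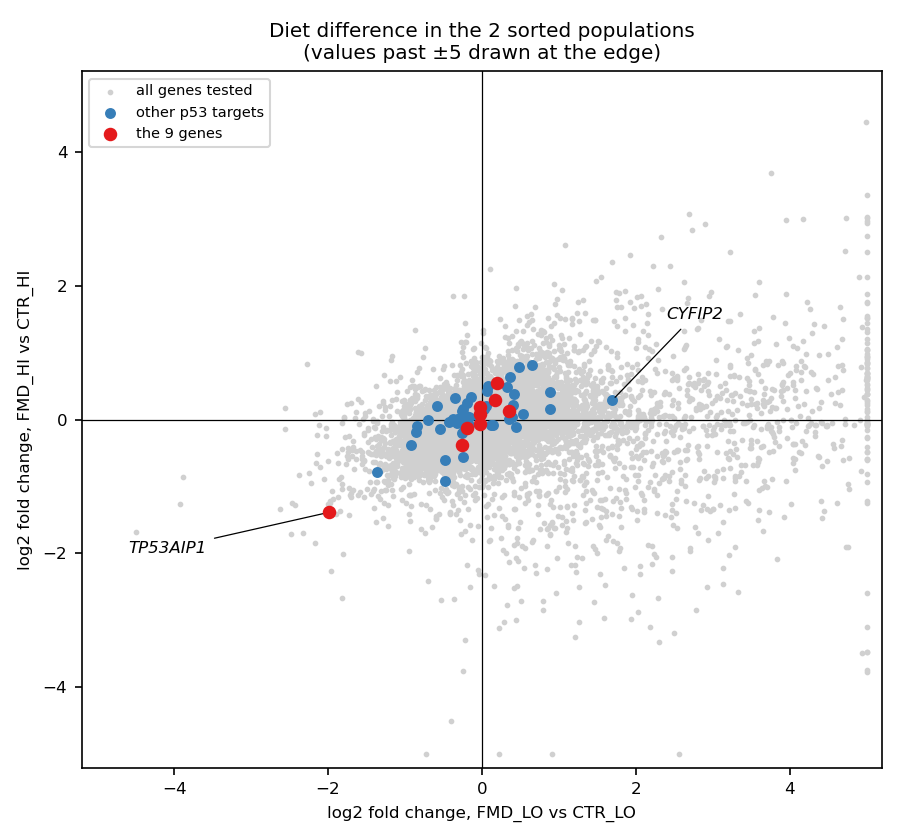
Log2 fold change between diets in CD24-low cells (horizontal) and CD24-high cells (vertical) for all 15461 genes tested (grey), the list of other p53 targets (blue) and the 9 members (red). TP53AIP1 lies at -1.99 and -1.39, while the other 8 members lie between -0.38 and 0.54 on both axes.

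Upstream of the targets, MDM2, the ligase in the feedback loop, was at 37.9, 48.5 and 40.8 CPM in CTR_LO and 37.4, 50.9 and 37.0 in CTR_HI. Under the fasting-mimicking diet it was at 45.7, 54.5 and 43.4 in FMD_LO and 50.6, 52.2 and 49.8 in FMD_HI. The diets overlapped in both populations, with replicate 2 of each control group among the FMD libraries. In CD24-high cells the log2 fold change was 0.29 ± 0.15, with an edgeR adjusted p of 0.794.

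TP53INP1, the cofactor for the phosphorylation that precedes TP53AIP1 induction, was at 10.5, 11.3 and 7.69 CPM in CTR_LO and 9.07, 11.7 and 8.79 in CTR_HI. It was at 7.12, 7.30 and 10.3 in FMD_LO and 6.52, 8.67 and 7.56 in FMD_HI. All 3 FMD_HI libraries lay below all 3 of CTR_HI, by a narrow margin (8.67 against 8.79), and CD24-low libraries overlapped between diets. The log2 fold change in CD24-high cells was -0.38 ± 0.20, and the edgeR adjusted p was 0.807.

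Of the mitochondrial arm, BBC3 (PUMA), which frees BAX by binding the antiapoptotic BCL-2 proteins, was at 57.7, 56.8 and 61.2 CPM in CTR_LO and 60.8, 66.0 and 49.0 in CTR_HI. It was at 64.2, 83.3 and 53.9 in FMD_LO and 79.1, 112 and 64.3 in FMD_HI. Its spread under the fasting-mimicking diet was wide, and the lowest FMD_HI library lay under the highest of CTR_HI. Here the log2 fold change in CD24-high cells was 0.54 ± 0.20, the highest of the 9, with an edgeR adjusted p of 0.604.

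BAX, which forms the pores in the outer mitochondrial membrane, was at 47.5, 52.2 and 49.5 CPM in CTR_LO and 49.3, 48.3 and 40.8 in CTR_HI. In FMD_LO it was at 57.0, 64.4 and 68.4, and in FMD_HI at 49.4, 48.3 and 53.5. The 3 FMD_LO libraries were the highest of all 12, and CTR_HI and FMD_HI overlapped. Its log2 fold change was 0.35 ± 0.11 in CD24-low cells and 0.13 ± 0.11 in CD24-high cells (edgeR adjusted p = 0.946). Of the 9 members, 2 (TP53AIP1 lower, BAX higher) had separate libraries in CD24-low cells, against 37.5% of all genes. By adjusted p, TP53AIP1 was the 1 member called there, against 16.4% of genes, and BAX became a second with RLE scaling, with DESeq2 and without CTR_HI replicate 3. Nothing is read from these counts, because that comparison chose TP53AIP1 and may have been seen when the others were named.

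FAS, a death receptor, was at 28.8, 27.7 and 31.7 CPM in CTR_LO and 31.5, 28.6 and 34.5 in CTR_HI, and at 30.1, 28.7 and 28.3 in FMD_LO and 35.6, 32.7 and 31.5 in FMD_HI. TNFRSF10B (DR5), a receptor for the ligand TRAIL, was at 128, 175 and 174 in CTR_LO and 206, 152 and 108 in FMD_LO, and at 129, 182 and 220 in CTR_HI and 248, 218 and 139 in FMD_HI. Both receptors overlapped between diets in each population. TNFRSF10B ranged from 108 to 206 CPM within FMD_LO alone, wider than the range of its group means (155 to 202). Log2 fold changes in CD24-high cells were 0.08 ± 0.11 for FAS and 0.19 ± 0.27 for TNFRSF10B, each with an edgeR adjusted p of 0.989.

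SESN1, a stress protein that restrains mTORC1, was at 27.2, 25.2 and 29.9 CPM in CTR_LO and 22.0, 27.3 and 31.3 in FMD_LO, and at 26.3, 22.4 and 28.5 in CTR_HI and 22.3, 24.7 and 26.4 in FMD_HI. ZMAT3, an RNA-binding protein that acts on splicing, was at 19.5, 17.6 and 17.1 in CTR_LO and 16.5, 17.6 and 13.3 in FMD_LO, and at 17.5, 14.1 and 21.3 in CTR_HI and 18.2, 15.4 and 14.8 in FMD_HI. All 4 groups overlapped in both genes. The log2 fold changes in CD24-high cells were -0.07 ± 0.14 and -0.13 ± 0.16, with edgeR adjusted p of 0.999 and 0.985, and each turned sign without CTR_HI replicate 3 (0.0055 and 0.027).

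In CD24-low cells, described only, the log2 fold changes of these 7 genes were 0.17 ± 0.15 for MDM2, -0.26 ± 0.20 for TP53INP1, 0.20 ± 0.20 for BBC3, -0.02 ± 0.11 for FAS, -0.03 ± 0.27 for TNFRSF10B, -0.03 ± 0.15 for SESN1 and -0.19 ± 0.16 for ZMAT3. All 7 had libraries that overlapped between the diets.

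Between populations under the control diet, edgeR called 0% of genes and 0 of the 8 members tested, all with an adjusted p of 1. Their log2 fold changes, CTR_HI against CTR_LO, ran from -0.11 (BAX) to 0.16 (TNFRSF10B), and TP53AIP1, as a description, was at -0.35 ± 0.23. Libraries separated in 0 of the 9, against 3.43% of genes. At an unadjusted p under 0.05 stood 91 genes (0.589%) and no member, and DESeq2 called 0 genes.

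Between populations under the fasting-mimicking diet, edgeR called 0 of the 9 members, against 14% of all genes, and the libraries of BAX and FAS separated (2 of 9, against 31.4%). This comparison shares FMD_LO with the choosing contrast, so its values are descriptions. Log2 fold changes, FMD_HI against FMD_LO, were -0.33 ± 0.11 for BAX, 0.20 ± 0.11 for FAS, 0.34 ± 0.20 for BBC3, 0.38 ± 0.27 for TNFRSF10B and 0.25 ± 0.26 for TP53AIP1. In each of the 3 replicate numbers, the CD24-high library was above the CD24-low library of the same number for BBC3, TNFRSF10B, FAS and TP53AIP1, and below it for BAX. Same-numbered libraries of these 2 groups deviated together, a pairing taken from these data and not from the labels. With the number as a block and only these 6 libraries edgeR called 3 of the 9 members, against 40.2% of the genes in that fit. BBC3 and TNFRSF10B were higher and BAX lower in CD24-high cells. That block was added after seeing the data, and nothing is read from its calls on the members.

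**Figure D3:**
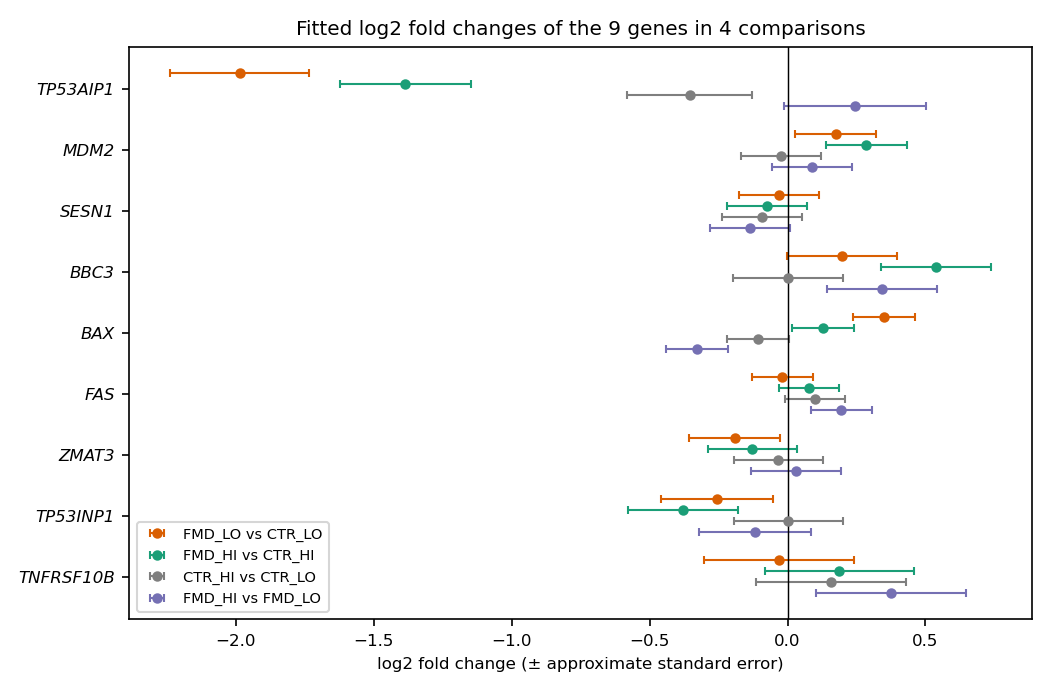
Fitted log2 fold changes of the 9 genes (points) with approximate standard errors (whiskers) in the diet comparisons of CD24-low and CD24-high cells and the population comparisons under each diet. TP53AIP1 lies at -1.99 and -1.39 for the diets, and no other value of the 9 genes lies beyond -0.38 or 0.54.

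Per kilobase of exon (GENCODE v29 exon union), TP53AIP1 had a mean level of 1.04 ± 0.616 CPM per kb (SD over 12 libraries), the lowest of the 9, which includes the FMD_LO libraries that chose it. By group it was at 1.78 CPM per kb in CTR_LO, above TP53INP1 at 1.73, and the lowest of the 9 in CTR_HI (1.39), FMD_LO (0.448) and FMD_HI (0.531). Over all libraries TP53INP1 followed at 1.56 ± 0.304 and ZMAT3 at 1.78 ± 0.236, and these levels per kb overlapped within their spread. MDM2 was at 3.59 ± 0.492, SESN1 at 6.62 ± 0.756 and FAS at 11.9 ± 0.987 CPM per kb. BBC3 at 32.2 ± 8.16, BAX at 37.1 ± 5.41 and TNFRSF10B at 41.8 ± 10.5 CPM per kb did not separate beyond their spread.

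TP63, a relative of p53 in basal epithelium that can bind the same elements, was at 305, 238 and 249 CPM in CTR_LO and 280, 219 and 274 in CTR_HI. In FMD_LO it was at 166, 179 and 160, and in FMD_HI at 218, 270 and 188. TP63 fell in FMD_LO against CTR_LO by 0.65 ± 0.15 on the log2 scale (edgeR adjusted p = 0.0105), and CD24-high libraries overlapped, with a log2 fold change of -0.19 ± 0.15 (adjusted p = 0.917). Of 23 tested genes of the p53 family and its regulators, 3 rose and 2 fell in FMD_LO, 21.7% against 16.4% of all genes, with a median of 0.11 against -0.03. That count of 5 went to 2 without CTR_LO replicate 1 or 3 or FMD_LO replicate 1 or 2. In CD24-high cells edgeR and DESeq2 called none of the 23, and 0 had an unadjusted p under 0.05.

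Group means in the order CTR_LO, CTR_HI, FMD_LO and FMD_HI were 26.4, 23.8, 29.1 and 26.6 CPM for MDM4, the partner of MDM2. HIPK2, the kinase named above, had means of 77.5, 87.3, 101 and 96.5 CPM in that order. CDKN1A (p21), the cell cycle inhibitor that is the best known p53 target, had means of 459 ± 37.9, 471 ± 44.3, 481 ± 153 and 632 ± 137 CPM. Neither diet comparison called MDM4, HIPK2 or CDKN1A. The other kinases named above, DYRK2 and PRKCD, were called in FMD_LO against CTR_LO. They rose by 0.63 ± 0.19 (edgeR adjusted p = 0.0389) and 0.53 ± 0.13 (0.0112) on the log2 scale, calls kept in 16 and 18 of 20 alternatives. In CD24-high cells they were at -0.11 ± 0.19 and -0.05 ± 0.13 (adjusted p 0.998 and 0.999).

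Other p53 targets, 47 tested of 49 listed, moved in both directions in CD24-low cells. In FMD_LO against CTR_LO, 4 rose and 6 fell, 21.3% against 16.4% of all genes, with a median log2 fold change of -0.20 against -0.03. That count of 10 went to 6 without CTR_LO replicate 1, to 4 without CTR_LO replicate 3 or FMD_LO replicate 2, and to 5 without FMD_LO replicate 1. CYFIP2, of the WAVE actin complex, rose from 4.19 ± 0.749 to 13.6 ± 2.16 CPM, a log2 fold change of 1.69 ± 0.25 (edgeR adjusted p = 4.84e-04). PLK3, a stress kinase, rose by 0.89 ± 0.17 on that scale (0.00294). PERP, a desmosomal protein, fell by 0.85 ± 0.14 (8.09e-04), from 362 ± 15.6 to 201 ± 23.0 CPM. TP53I3, a quinone oxidoreductase, fell by 0.54 ± 0.12 (0.00799). These 4 genes passed in every one of the 20 alternatives. The leukocyte markers rose in the same libraries (7 of 10 tested), and their part in these values was not tested.

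In CD24-high cells edgeR called 0 of the 47, with 9 at an unadjusted p under 0.05 (19.1%, against 6.74% of all genes). DESeq2 called 4, KITLG, PLK2, POLH and SERTAD1, against 0.497% of the genes it tested, and these 4 are named after their values were seen. PERP, in neither of these sets, was at 348 ± 36.4 CPM in CTR_HI and 306 ± 44.8 in FMD_HI (edgeR adjusted p = 0.912). Between populations under the fasting-mimicking diet 4 of the 47 were higher and 5 lower in FMD_HI, 19.1% against 14% of genes. The 9 went to 4 without FMD_LO replicate 2 and to 5 without FMD_HI replicate 3. With the replicate block on these 6 libraries 33 were called (23 higher, 10 lower), a larger share than the 40.2% of all genes in that fit. That block was added after seeing the data, and nothing is read from its calls on this list. PERP was higher in FMD_HI by 0.61 ± 0.13 on the log2 scale (edgeR adjusted p = 0.00694). Under the control diet edgeR and DESeq2 called none of the 47, and 0 had an unadjusted p under 0.05.

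The BCL-2 family holds the partners of BBC3 and BAX. In FMD_LO against CTR_LO, 4 of 14 tested members rose and none fell, 28.6% against 16.4% of genes, with a median of 0.15 against -0.03. BCL2L11 (BIM), which like BBC3 binds the antiapoptotic members, rose from 38.6 ± 5.66 to 71.7 ± 9.79 CPM, a log2 fold change of 0.89 ± 0.17 (edgeR adjusted p = 0.00324). BNIP3L, a mitophagy receptor, rose by 1.04 ± 0.19 (0.00203). BCL2L1 (BCL-XL), which holds BAX in check, rose by 0.66 ± 0.13 (0.00282) in reads of its own strand, but was at -0.031 (0.902) with reads of either strand. That column does not count reads shared with a gene on the other strand. In it 39.7%, 38.2% and 43.4% of the BCL2L1 count was left in FMD_LO, and 59.4% to 66.5% in the other groups. For the 9 p53 targets 97.4% to 103% was left. BCL2L1 is counted among the 4 that rose. Means of MCL1, in the order CTR_LO, CTR_HI, FMD_LO and FMD_HI, were 1526, 1542, 1828 and 1935 CPM, and those of BCL2 were 7.24, 7.38, 6.19 and 5.66 CPM.

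Of death receptors, their adaptors and caspases, 2 of 20 tested fell and none rose in FMD_LO, 10% against 16.4% of genes, with a median log2 fold change of -0.21 against -0.03. CYCS, the cytochrome c that BAX pores release, fell by 0.74 ± 0.13 on the log2 scale (edgeR adjusted p = 0.00168), from 159 ± 11.3 to 94.9 ± 8.52 CPM. FADD, the adaptor of FAS and TNFRSF10B, had group means of 22.0, 23.8, 17.9 and 23.2 CPM in the order CTR_LO, CTR_HI, FMD_LO and FMD_HI. CASP8, the caspase it recruits, had means of 39.5, 40.9, 34.9 and 40.6. The count of 2 went to 1 without CTR_LO replicate 1 or FMD_LO replicate 1. In CD24-high cells edgeR and DESeq2 called none of the 14 BCL-2 genes and none of these 20, with 3 (21.4%) and 1 (5%) at an unadjusted p under 0.05, against 6.74% of all genes.

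TP53AIP1 lies on chromosome 11 (128934731 to 128942871 on GRCh38.p14, minus strand). Of the 6 tested genes around it, the 2 nearest on one side, KCNJ5 and C11orf45, which lies within the span of KCNJ5, also had lower values under the fasting-mimicking diet in both populations. C11orf45, 35.2 kb below TP53AIP1, had a log2 fold change of -1.42 ± 0.42 in CD24-low cells (edgeR adjusted p = 0.0363) and -0.52 ± 0.39 in CD24-high cells. The call on C11orf45 held in 14 of 20 alternatives. Among the 6 losses were the fits without CTR_LO replicate 1, 2 or 3 or FMD_LO replicate 1 or 2 (edgeR adjusted p 0.05005 to 0.135). KCNJ5, 43.4 kb below, was at -2.37 ± 0.93 (edgeR adjusted p = 0.0989) and -0.83 ± 0.69. Both genes rested on few reads. KCNJ5 had 34, 4 and 12 in CTR_LO, 0, 3 and 1 in FMD_LO, 25, 6 and 10 in CTR_HI and 5, 10 and 9 in FMD_HI. C11orf45 had 152, 110 and 78 in CTR_LO, 15, 16 and 29 in FMD_LO, 113, 80 and 66 in CTR_HI and 33, 44 and 122 in FMD_HI. Further below, FLI1, an ETS factor of blood and vessel cells, rose in FMD_LO by 1.79 ± 0.25 (2.89e-04) and was at -0.03 ± 0.25 in CD24-high cells, with an interaction of 1.82 ± 0.35 (edgeR adjusted p = 0.00944).

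Above TP53AIP1, ARHGAP32 (30.3 kb) was at 0.11 ± 0.14 in CD24-low and 0.19 ± 0.14 in CD24-high cells. BARX2, 441 kb above, was at 2.25 ± 0.59 in CD24-low cells (edgeR adjusted p = 0.0194), a call lost without CTR_LO replicate 1 or 3 or FMD_LO replicate 1 or 2 (0.0550 to 0.0729). NFRKB, 929 kb above, was at -0.10 ± 0.18 and -0.02 ± 0.18. In CD24-high cells edgeR called none of the 6 (adjusted p from 0.9005 to 0.999). Distances are between the lowest coordinates of the genes.

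**Figure D4:**
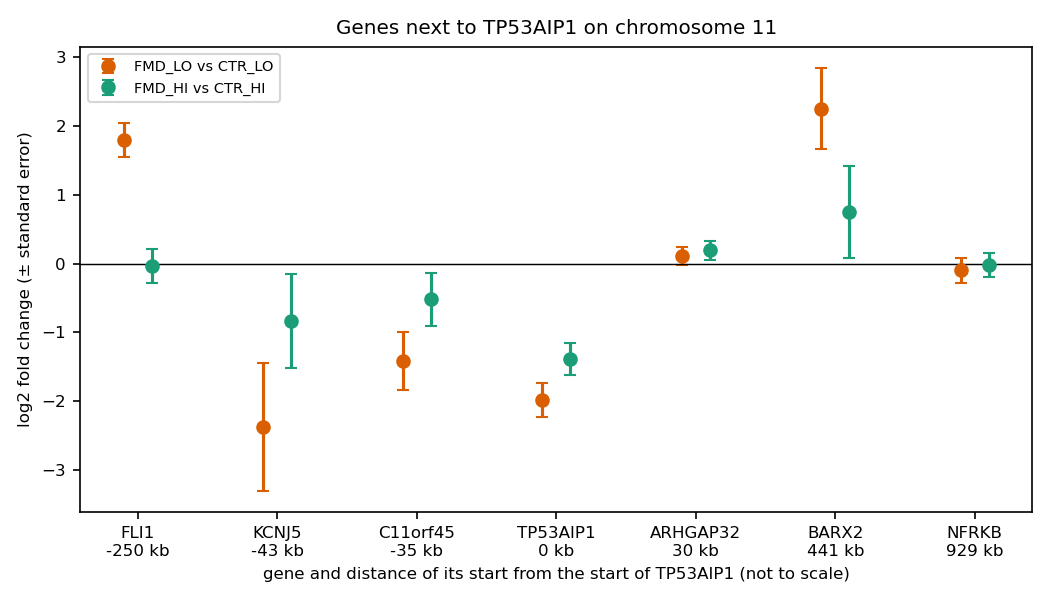
Log2 fold changes between diets (vertical, with standard errors) of TP53AIP1 and the 3 nearest tested genes on each side, in chromosomal order with the distance in kb under each name, in CD24-low and CD24-high cells. TP53AIP1 is low in both populations, ARHGAP32 lies at 0.11 and 0.19, and FLI1 lies at 1.79 in CD24-low and at -0.03 in CD24-high cells.

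Among the 11637 protein-coding genes with a mean of at least 2 CPM, those whose log2 CPM followed TP53AIP1 most closely over the 12 libraries were AIG1 (Pearson r = 0.970), P2RX6 (0.957), C10orf54 (0.956), RAB7B (0.945), GEMIN6 (0.940) and C5AR1 (0.938). These points share libraries and depth and fall into 2 diets, so the values are descriptions. AIG1 means were 61.9, 59.2, 46.7 and 48.6 CPM in CTR_LO, CTR_HI, FMD_LO and FMD_HI, a smaller ratio between diets than that of TP53AIP1. P2RX6 means were 8.85, 8.34, 3.82 and 5.07 CPM, and RAB7B means 46.0, 42.6, 21.5 and 28.3 CPM, in the same order. None of the other 8 p53 targets was among the 6. With 6 places for 11637 genes that was likely for any 8 genes, and nothing is read from it.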

How the data were processed

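The authors deposited raw counts per gene, made with STAR on hg38 per the submitters' processing notes. The STAR version and annotation are not given in the sources used here, nor whether mouse reads were removed. Column 4 (reverse strand, as the stranded kit reads) was used, and 1.59% to 1.75% of reads lay on the opposite strand. RefSeq (GRCh38.p14) matched 25369 of 26475 symbols. The members and gene lists were chosen with earlier results of these data known.

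One edgeR 4.0.16 fit (R 4.3.3) held all 4 groups: quasi-likelihood, robust, TMM scaling and the default count filter, which removed 11014 genes. It had 8 residual degrees of freedom. The common biological coefficient of variation was 0.190. A call is an adjusted p (Benjamini-Hochberg, over all 15461 genes) below 0.05, with no minimum fold. A standard error is the absolute log2 fold change over the square root of F. The script was tested on simulated data, and no 2 libraries were identical.

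Named were all members, called list genes (where over 8, the 4 smallest p each way), fixed p53 and apoptosis genes, neighbours, and the 6 genes most like TP53AIP1. One gene that the rule took is withheld and not reported. The text prints part of the called genes, leaving out most calls that depended on one library. The alternatives were counts of both strands, RLE in place of TMM, DESeq2 1.42.0, no filter, a prior count of 2, a fit of only the groups compared, a replicate block, and leaving out each library. Thinning, and a replicate block on the FMD libraries alone, were added after seeing the data.

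The labels do not say that a replicate number marks one tumour. Deviations from the group mean of same-numbered libraries correlated at 0.444, 0.285 and 0.485 between FMD_LO and FMD_HI, and at 0.445, 0.522 and 0.0373 between CTR_LO and CTR_HI. Across diets no same-numbered pair was above 0.1. The main fit had no replicate block, so its tests treat the libraries as unpaired. Pairing entered only through the replicate blocks and the comparison of same-numbered FMD libraries.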

Additional observations from a re-analysis of the deposited data

Results flagged for a closer look

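CYFIP2, among the other p53 targets, and FLI1, a chromosomal neighbour of TP53AIP1, were the named genes whose diet difference differed between the populations by the test of that difference itself. For CYFIP2 the log2 fold change of the diet was 1.69 ± 0.25 in CD24-low and 0.29 ± 0.25 in CD24-high cells. The interaction was 1.41 ± 0.35 (edgeR adjusted p = 0.0399). It called 1 of the 47 other p53 targets tested (2.13%), against 4.13% of all genes, so the list had no excess of such calls. Levels were 16.1, 12.4 and 12.3 CPM in FMD_LO, and between 2.83 and 5.70 in the other 9 libraries. The call was lost without CTR_LO replicate 2 (0.0641) or 3 (0.0980), CTR_HI replicate 3 (0.0693), FMD_LO replicate 1 (0.0962) or 2 (0.0658), and FMD_HI replicate 1 (0.0686) or 3 (0.0869), with the replicate block (0.0623) and with libraries thinned to equal depth (0.0914). FLI1 had an interaction of 1.82 ± 0.35 (edgeR adjusted p = 0.00944), with 10.7, 8.48 and 12.2 CPM in FMD_LO and 1.92 to 3.66 in the other 9 libraries. It passed in all 19 alternatives run, with adjusted p up to 0.0293. The interaction also called 5 of 10 leukocyte markers and 3 of 12 fibroblast markers tested. These markers were high in the same FMD_LO libraries, and their part in the CYFIP2 and FLI1 values was not tested.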

How the results depend on the processing

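With DESeq2, 74 genes were called between diets in CD24-high cells in place of 0, among them 1 member (TP53AIP1, at -1.38) and 4 other p53 targets. It called 2 members between diets in CD24-low cells and 1 between populations under the fasting-mimicking diet, and for the interaction 1135 genes and 2 other targets in place of 638 and 1. RLE scaling called 2 members in CD24-low cells, and no count filter 1 gene in CD24-high cells. With thinning, 1 member was called between populations under the fasting-mimicking diet and 0 other targets for the interaction. The causes were not tested.

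With reads of either strand BCL2L1 turned to -0.031 between diets in CD24-low cells and to 0.11 between populations under the fasting-mimicking diet. Between populations under the control diet, where all values were near 0, BBC3 turned to -7.55e-04 with either strand and -1.63e-04 with only the groups compared, and ZMAT3 to 0.027 with thinning. Between diets in CD24-high cells thinning turned FLI1 to 0.0092 and NFRKB to 0.0073.

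The replicate block on all 12 libraries called 1 gene between diets in CD24-high cells, turned BBC3 to -0.025 and TP53INP1 to -0.0026 between populations under the control diet, and took CYFIP2 out of the interaction calls. On the 6 FMD libraries alone the block called 5870 genes, 3 members and 33 other targets between populations, in place of 2163, 0 and 9. In 11 of 12 libraries the closest library outside its group carried the same number, a hint from the data and not the design. The block changed no other call on a member.

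Leaving out 1 library at a time gave 0 to 1 genes called between diets in CD24-high cells, 1562 to 2795 in CD24-low cells and 380 to 767 for the interaction. Members called ran from 1 to 2 in CD24-low cells and 0 to 1 between populations under the fasting-mimicking diet. Other targets ran from 4 to 13, 4 to 9 and, for the interaction, 0 to 2. Among members and neighbours, log2 fold changes that changed sign were SESN1 (-0.15 to 0.0055), ZMAT3 (-0.25 to 0.027), FLI1 (-0.19 to 0.22) and NFRKB (-0.15 to 0.13) between diets in CD24-high cells, and NFRKB (-0.26 to 0.021), SESN1 (-0.17 to 0.090), FAS (-0.075 to 0.046) and TNFRSF10B (-0.29 to 0.17) in CD24-low cells, where FAS also turned with RLE (0.0089) and DESeq2 (0.0075). Between populations under the control diet they were MDM2 (-0.19 to 0.074), BBC3 (-0.10 to 0.12), ZMAT3 (-0.18 to 0.10), TP53INP1 (-0.14 to 0.10) and TNFRSF10B (-0.019 to 0.34), and under the fasting-mimicking diet SESN1 (-0.25 to 0.0068), ZMAT3 (-0.076 to 0.12) and TP53INP1 (-0.20 to 0.089). For the interaction they were SESN1 (-0.10 to 0.15), ZMAT3 (-0.19 to 0.051) and TP53INP1 (-0.083 to 0.22). At the depth of FMD_LO, TP53AIP1 rests on 19 to 31 counts.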
